A study of Mus musculus with 65 samples.

Results

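The Hox genes of mouse bone marrow were followed through hematopoietic stem and progenitor cells (HSPCs) and through the niche cells that surround them in the hindlimb. The 39 members were all genes whose symbol was Hoxa, Hoxb, Hoxc or Hoxd followed by a paralog number. They were 39 of 44485 genes in the HSPC table and 39 of 44353 genes in the niche table, and the same 39 Ensembl identifiers were found among 47526 genes in a table of niche cells after the drug 5-fluorouracil (5FU). In mm10 coordinates the 11 Hoxa genes lie on chromosome 6 (52155590 to 52260880, minus strand) and the 10 Hoxb genes on chromosome 11 (96194316 to 96368256, plus strand). The 9 Hoxc genes lie on chromosome 15 (102921103 to 103036852, plus strand) and the 9 Hoxd genes on chromosome 2 (74668310 to 74765142, plus strand).

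Hox proteins are homeodomain transcription factors that give cells positional identity along the body axis and along the limb. The order of the genes within a cluster follows the paralog number, and low numbers are generally active further toward the head than high numbers. Most Hox proteins bind DNA together with cofactors of the Pbx and Meis families, Trithorax proteins such as Kmt2a keep the clusters active, and Polycomb proteins keep them silent. In blood formation Hoxa9, Hoxa10 and Hoxb4 are known as regulators of stem and progenitor cells. In the hindlimb the genes with paralog numbers 9 to 13 pattern the skeleton from thigh to digit.

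Expression was measured by RNA sequencing of sorted cells from femur and tibia in 65 libraries of 17 groups, deposited as FPKM (fragments scaled to transcript length and to the total mapped in a library). The 5 HSPC groups were LSK cells, the lineage-negative, Sca1-positive and Kit-positive fraction. 5FuReserve cells (n = 3) were Flk2-, CD34- and CD49b- and were taken on day 3 after 5FU, although 1 of the labels reads CD49-. MPP cells (multipotent progenitors, n = 4) were Flk2+ and CD34+, ST cells (short-term stem cells, n = 3) were Flk2- and CD34+, Primed cells (n = 3) were Flk2-, CD34- and CD49b+, and Reserve cells (n = 4) were Flk2-, CD34- and CD49b- without 5FU. In the niche, MK cells (n = 4) were CD45+ and marked by YFP through Pf4-Cre, which is active in megakaryocytes, and Mac cells (n = 4) were CD45+, YFP-negative in the same mice and F4/80+. The other niche groups were sorted as negative for CD45, Ter119 and CD31 and positive for a reporter or surface protein: Pecam_GFP, Col2.3_GFP, Ng2_RFP, Ncad_bone and Ncad_marrow (Tomato-positive cells of bone or marrow), Cxcl12_RFP and Nestin_GFP with n = 4 each, and Lepr with n = 6. 5FU_Ncad_bone and 5FU_Ncad_marrow (n = 3 each) were Tomato-positive cells after 5FU, at a time the labels do not give. The labels give no strain, age or sex, and each reporter marks the cells in which its own promoter or Cre driver is or was active, which need not be a single cell type.

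Between 12764 and 13937 genes reached 1 FPKM in an HSPC library, 11649 to 14066 in a niche library and 12891 to 14258 in a library of niche cells after 5FU. The labelled cell types were checked against marker genes. Summed endothelial marker FPKM (Cdh5, Pecam1, Kdr, Emcn and Tek) was 1200 to 1580 in Pecam_GFP libraries, although the label of that group lists CD31-, the protein product of Pecam1, and it was 6.68 to 14.5 in Lepr libraries. Summed mesenchymal marker FPKM was 199 to 362 in Pecam_GFP and 13500 to 19200 in Lepr. Summed megakaryocyte marker FPKM was 6440 in 1 of the 6 Lepr libraries, with a median of 44.5. The labels do not say whether libraries of a group came from separate mice, and p-values therefore cover only the spread among libraries, which may be technical. FPKM was tested only within a table, except in the term for site and 5FU described below, which joins both niche tables. Levels in different tables are otherwise set side by side without a test, because joint normalization of the 3 tables is not stated in the sources used here.

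In HSPCs the Hox repertoire was almost all Hoxa. Averaged over the 5 HSPC groups, the 6 highest members were Hoxa9 at 58.1 FPKM, Hoxa7 at 24.8, Hoxa10 at 13.3, Hoxa5 at 12, Hoxa3 at 4.54 and Hoxb2 at 3.77. The Hoxa cluster held 88.6% of summed Hox FPKM in 5FuReserve, 97.0% in MPP, 94.4% in ST, 94.8% in Primed and 90.0% in Reserve. Hoxb held 10.8% in 5FuReserve, 2.59% in MPP, 5.15% in ST, 5.02% in Primed and 9.51% in Reserve. No Hoxc or Hoxd gene had a group mean of 1 FPKM in HSPCs: the highest Hoxc value in a library was 1.13 FPKM, for Hoxc6 in 1 Reserve library, and the highest Hoxd value was 0.301 FPKM.

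The mesenchymal groups of the hindlimb held mainly Hoxa and Hoxc transcripts, with Hoxb2 and Hoxd8 from the other clusters. Averaged over the 7 stromal groups (Col2.3_GFP, Ng2_RFP, Ncad_bone, Ncad_marrow, Cxcl12_RFP, Nestin_GFP and Lepr), the 6 highest members were Hoxa10 at 35.5 FPKM, Hoxa9 at 24.8, Hoxa7 at 12.6, Hoxc10 at 8.16, Hoxa5 at 7.75 and Hoxc6 at 7.66. Hoxc10, a hindlimb gene with paralog number 10, was at or below 0.117 FPKM in every HSPC library and at 5.3 to 13.6 FPKM in the 30 stromal libraries. Hoxc5, Hoxc6, Hoxc8, Hoxc9 and Hoxc10 were at 1 FPKM or more in all 30 stromal libraries. Hoxc6, for example, was between 3.2 and 12.1 FPKM there, and the highest HSPC values of Hoxc5, Hoxc8 and Hoxc9 were 0.675, 0.179 and 0.407 FPKM. Hoxa11, which patterns the middle segment of the limb, was listed at 0 in all 17 HSPC libraries.

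The group mean of the ratio of Hoxa9 to Hoxa10 FPKM also lay on opposite sides of 1 in HSPCs and stroma. It averaged 3.70 ± 0.516 in 5FuReserve (SD, n = 3), 5.89 ± 1.03 in MPP (SD, n = 4), 4.64 ± 0.871 in ST (SD, n = 3), 4.99 ± 0.327 in Primed (SD, n = 3) and 3.76 ± 0.447 in Reserve (SD, n = 4). In the 7 stromal groups the mean ratio was between 0.573 in Ncad_bone and 0.88 in Ng2_RFP, and it was 1.43 in Pecam_GFP. Single Lepr libraries ranged from 0.639 to 1.08, so not every stromal library lay below 1. The members with paralog numbers 9 to 13 held 50.2% (MPP) to 62.4% (5FuReserve) of summed Hox FPKM in HSPCs and 50.6% to 60.7% in the stromal groups, so HSPCs and stroma overlapped in paralog class while they differed in cluster.

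**Figure D1:**
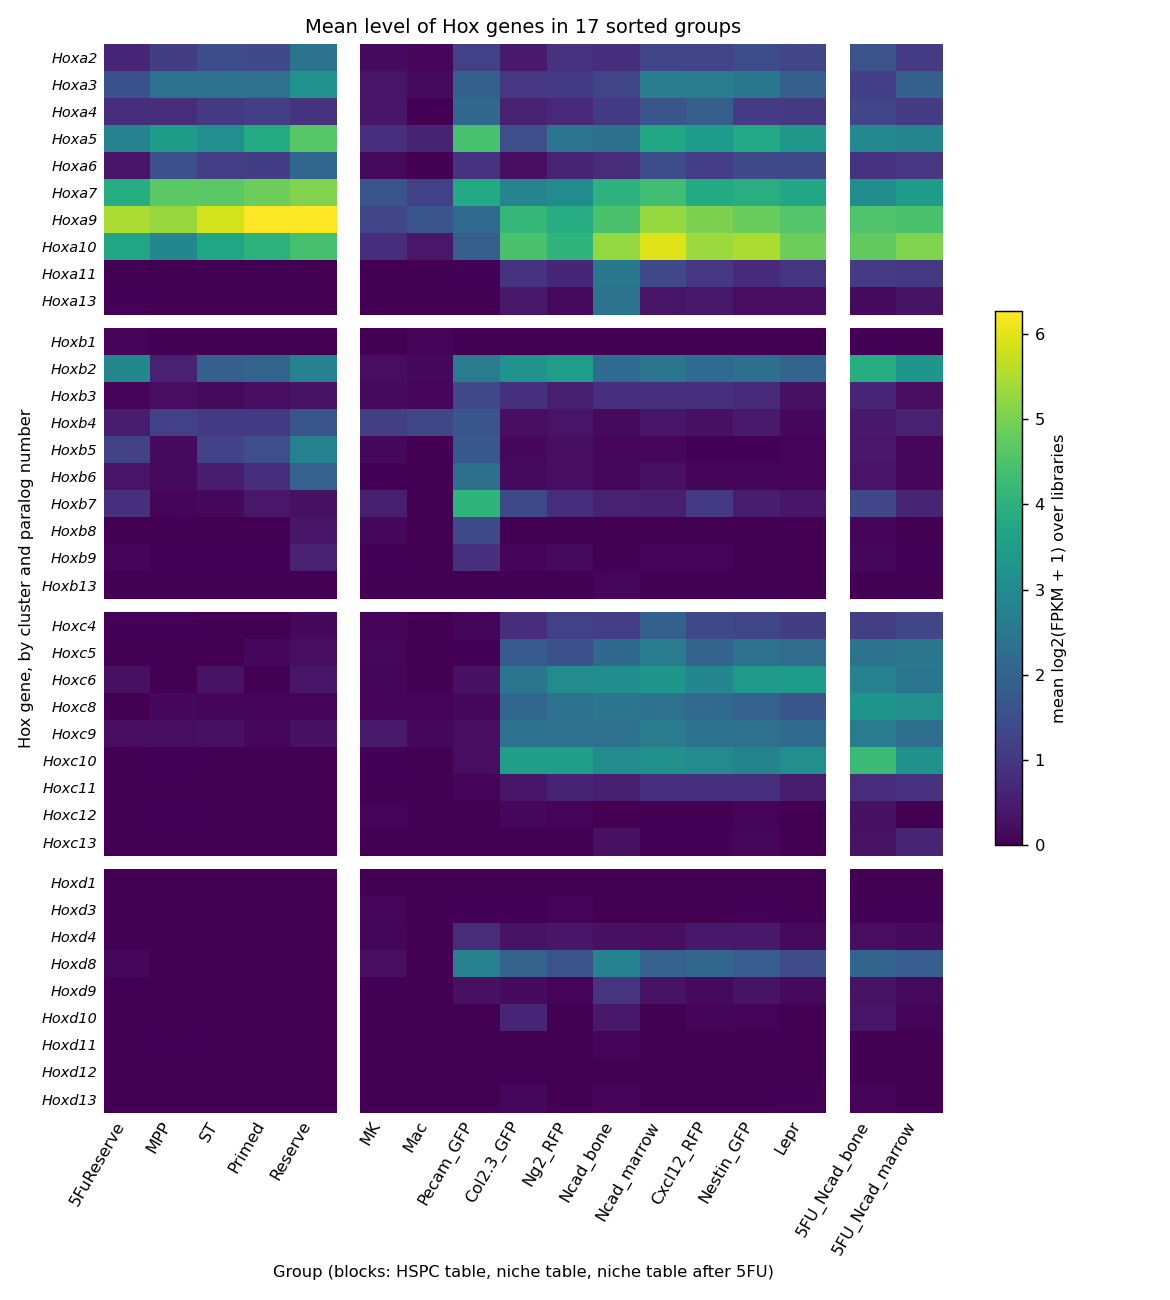
Mean expression of the Hox genes, in rows by cluster and paralog number, in the 17 groups of sorted cells, in columns; colour is the mean of log2(FPKM + 1) over the 3 to 6 libraries of a group. HSPC columns are filled almost only in the Hoxa rows, stromal columns in the Hoxa and Hoxc rows and in Hoxb2 and Hoxd8, and the Pecam_GFP column has its highest values in Hoxa5, Hoxb7 and Hoxa7, with Hoxc rows near 0.

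Promoter sequence is shown for 4 Hoxa genes on which the results turn: Hoxa9, the highest member in HSPCs, Hoxa10, the highest in stroma, Hoxa5, which differed between groups of both kinds, and Hoxa13, which was highest in 1 stromal group. Each line is the 250 bases before a RefSeq start (GRCm38.p6), on the minus strand and 5′ to 3′. Capitals mark matches on either strand to the GC box GGGCGG or the CCAAT box CCAAT; no match to the Pbx-Hox motif TGATNNAT or the Meis motif TGACAG was in these 5 windows. In Hoxa13 the CCAAT box and a GC box adjoin without overlapping.
Hoxa5, chr6:52204588-52204837: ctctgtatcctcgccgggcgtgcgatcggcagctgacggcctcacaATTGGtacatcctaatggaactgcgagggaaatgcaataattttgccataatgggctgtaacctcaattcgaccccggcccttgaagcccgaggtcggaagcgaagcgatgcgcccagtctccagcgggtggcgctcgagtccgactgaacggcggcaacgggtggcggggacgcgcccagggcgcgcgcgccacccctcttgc
Hoxa9, chr6:52227371-52227620: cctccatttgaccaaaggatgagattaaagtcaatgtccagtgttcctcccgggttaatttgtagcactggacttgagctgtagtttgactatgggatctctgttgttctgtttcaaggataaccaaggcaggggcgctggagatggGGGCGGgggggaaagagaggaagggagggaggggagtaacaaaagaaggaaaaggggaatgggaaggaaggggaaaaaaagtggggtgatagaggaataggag
Hoxa10, first start, chr6:52234940-52235189: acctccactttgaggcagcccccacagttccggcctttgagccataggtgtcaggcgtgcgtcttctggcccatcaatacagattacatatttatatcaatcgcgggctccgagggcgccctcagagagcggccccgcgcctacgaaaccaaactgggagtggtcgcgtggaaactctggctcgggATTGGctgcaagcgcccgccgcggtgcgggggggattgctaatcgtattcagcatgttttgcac
Hoxa10, second start, chr6:52240855-52241104: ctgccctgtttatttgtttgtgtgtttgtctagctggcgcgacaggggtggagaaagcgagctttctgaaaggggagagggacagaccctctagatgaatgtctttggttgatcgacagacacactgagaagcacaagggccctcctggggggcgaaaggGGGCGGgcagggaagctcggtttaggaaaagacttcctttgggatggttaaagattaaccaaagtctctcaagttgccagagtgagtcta
Hoxa13, chr6:52260881-52261130: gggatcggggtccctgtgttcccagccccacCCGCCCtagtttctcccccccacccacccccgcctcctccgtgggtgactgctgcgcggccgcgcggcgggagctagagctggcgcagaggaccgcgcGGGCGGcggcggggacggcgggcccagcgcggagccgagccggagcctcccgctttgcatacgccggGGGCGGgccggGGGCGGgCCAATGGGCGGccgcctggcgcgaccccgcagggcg

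These windows differed widely in base composition. GC content was 63.6% for Hoxa5, 49.6% for Hoxa9, 59.2% and 51.6% for the first and second Hoxa10 starts, and 80% for Hoxa13, which held 5 GC boxes. The RefSeq start of Hoxa9 lies inside the GENCODE span of the gene (52223100 to 52231089), and the first start of Hoxa10 inside that of Hoxa10 (52231197 to 52240854), so these windows are not upstream of every annotated transcript. RefSeq windows matched 22 of the 39 members, in 24 windows with a median GC content of 58.6%, against 52.4% over 32851 windows of all genes. A CCAAT box was in 14 of the 24 Hox windows (58.3%) and in 33.8% of all windows, and a GC box in 10 (41.7%) and in 32.7%. The Pbx-Hox motif was in 4 (16.7%) and in 7.68%, and the Meis motif in 2 (8.33%) and in 15.9%. A motif match is a description of the letters and not a measured binding site.

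Expression of the Hoxa genes was compared between each HSPC group and Reserve cells, the CD49b- cells of marrow without 5FU. Tests were limma fits on log2(FPKM + 1) of all genes that reached 1 FPKM in at least 3 HSPC libraries, with p-values adjusted over all of them (Benjamini-Hochberg) and called below 0.05. Of the 39 members 12 passed that filter, 8 Hoxa and 4 Hoxb, and Hoxb6 passed only through Reserve, so a lower value elsewhere was built into its selection. No tested member was called higher than in Reserve in any of the 4 comparisons. After 5FU 10 of 12 members were lower in 5FuReserve and 0 higher, where 22.8% of all tested genes were lower and 25.5% higher. In MPP 9 of 12 were lower and 0 higher, against backgrounds of 28.3% and 12.7%. In ST 8 of 12 were lower and 0 higher, against 6.21% and 6.52%, and in Primed 5 of 12 were lower and 0 higher, against 2.26% and 1.61%.

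The median log2 fold change of the 12 members was -1.36 in 5FuReserve, where the median of all tested genes was -0.03. It was -1.07 in MPP (all genes -0.2), -0.88 in ST (all genes -0.02) and -0.78 in Primed (all genes 0). Summed Hox FPKM was 89.4 ± 5.29 in 5FuReserve (SD, n = 3), 91.2 ± 6.31 in MPP (SD, n = 4), 115 ± 7.74 in ST (SD, n = 3), 148 ± 5.25 in Primed (SD, n = 3) and 189 ± 2.55 in Reserve (SD, n = 4). The 4 comparisons share the same Reserve libraries. In these bulk samples fewer cells of a type and less RNA per cell cannot be told apart.

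Hoxa5, a paralog-5 gene also known from lung and skeletal patterning, was lower than in Reserve in all 4 groups. It was at 4.67, 6.61 and 6.36 FPKM in 5FuReserve, 9.01, 11.9, 8.96 and 9.56 in MPP, 6.09, 10.1 and 6.78 in ST, 13.5, 14.4 and 12.1 in Primed, and 24.7, 21.4, 24.5 and 23.4 in Reserve. All 4 Reserve libraries were above all 13 other HSPC libraries. The log2 fold change (± SE, with limma's adjusted p) was -1.84 ± 0.16 in 5FuReserve (3.4e-07), -1.18 ± 0.15 in MPP (2.3e-05), -1.53 ± 0.16 in ST (1.9e-05) and -0.78 ± 0.16 in Primed (0.016).

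Hoxb5, whose reporter expression has been used to mark long-term stem cells in mice, was also highest in Reserve, and lowest in MPP. It was at 1.53, 0.918 and 1.54 FPKM in 5FuReserve, 0, 0.353, 0.105 and 0.115 in MPP, 2.26, 1.3 and 0.765 in ST, 2.68, 1.41 and 1.47 in Primed, and 4.09, 6.28, 5.56 and 7.12 in Reserve. No library of another group reached the lowest Reserve value. Exons of Hoxb5 overlap Hoxb5os on the other strand, and whether counting used strand is not given in the sources read, so reads of a gene and its antisense partner cannot be told apart. The limma log2 fold changes were -1.53 ± 0.23 in 5FuReserve (adjusted p = 9e-05), -2.55 ± 0.22 in MPP (4.5e-07), -1.5 ± 0.23 in ST (0.00055) and -1.25 ± 0.23 in Primed (0.0086).

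Hoxa9, a gene with a well-known role in leukemia, was lower than in Reserve in 3 groups and was not called in Primed. It was at 47.3, 43.9 and 39.8 FPKM in 5FuReserve, 40.7, 31.7, 46.0 and 37.6 in MPP, 53.7, 54.0 and 59.7 in ST, 71.5, 78.6 and 77.4 in Primed, and 74.3, 82.0, 74.3 and 73.5 in Reserve. The Primed and Reserve libraries overlapped, with a log2 fold change of 0 ± 0.11 (limma adjusted p = 1). It was -0.79 ± 0.11 in 5FuReserve (adjusted p = 3.9e-05), -0.96 ± 0.1 in MPP (4.1e-06) and -0.44 ± 0.11 in ST (0.016). Without ST replicate 1 or ST replicate 2 the adjusted p of the ST call was 0.057 and 0.058.

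Hoxa10, its neighbour in the cluster, was lowest in MPP. It was at 11, 12.9 and 11.7 FPKM in 5FuReserve, 5.52, 6.33, 8.34 and 6.63 in MPP, 9.54, 13.6 and 13.8 in ST, 15.4, 15.5 and 14.7 in Primed, and 17.3, 20.9, 23.1 and 20.2 in Reserve. The Reserve libraries did not overlap any other group, and MPP did not overlap 5FuReserve, ST or Primed. The limma log2 fold change was -0.73 ± 0.15 in 5FuReserve (adjusted p = 0.001), -1.48 ± 0.14 in MPP (1.1e-06), -0.69 ± 0.15 in ST (0.0059) and -0.4 in Primed, which did not pass (0.18).

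Hoxa7 had its lowest values after 5FU. It was at 12.2, 15.7 and 13.6 FPKM in 5FuReserve, 24.9, 24.7, 23.6 and 25.5 in MPP, 19.8, 25.4 and 29.0 in ST, 25.5, 30.7 and 27.5 in Primed, and 29.5, 29.6, 34.7 and 38.1 in Reserve. The 3 5FuReserve libraries lay below all 14 others. The log2 fold change was -1.19 ± 0.13 in 5FuReserve (limma adjusted p = 4.6e-06) and -0.39 ± 0.12 in MPP (0.02), and it did not pass in ST (-0.41, adjusted p = 0.062; 0.034 without ST replicate 3) or Primed (-0.23, 0.42). The MPP call was lost without Reserve replicate 3 or 4 (adjusted p = 0.055 and 0.07) and under median-of-ratios scaling (0.3).

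Hoxb2 followed another order. It was at 6.97, 7.22 and 5.77 FPKM in 5FuReserve, 0.366, 0.07, 0.712 and 1.03 in MPP, 2.63, 2.74 and 2.54 in ST, 2.17, 3.4 and 3.59 in Primed, and 7.35, 6.98, 4.54 and 5.03 in Reserve. The 5FuReserve and Reserve libraries overlapped, and the ST, Primed and MPP libraries lay below both. The limma log2 fold change was 0.15 ± 0.22 in 5FuReserve (adjusted p = 0.61), -2.19 ± 0.21 in MPP (1.2e-06), -0.92 ± 0.22 in ST (0.013) and -0.78 in Primed (0.068). With a pseudocount of 0.1 the ST call was lost (0.16). Hoxb2 and Hoxa4 were the 2 of 12 members not called in 5FuReserve.

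**Figure D2:**
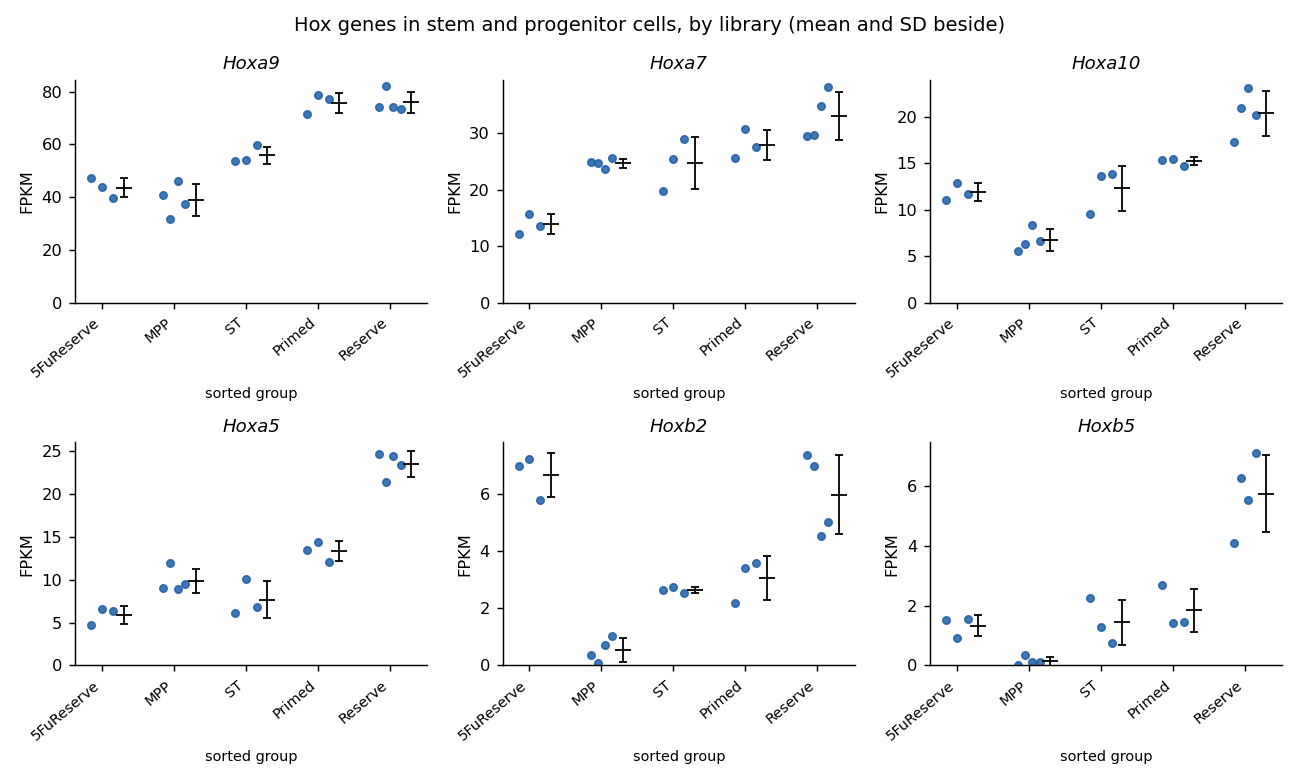
FPKM of Hoxa9, Hoxa7, Hoxa10, Hoxa5, Hoxb2 and Hoxb5 in each of the 17 HSPC libraries (points), with the group mean and SD drawn beside them, for 5FuReserve, MPP, ST, Primed and Reserve. Hoxa5 and Hoxb5 are highest in the 4 Reserve libraries, the Primed and Reserve libraries overlap for Hoxa9, and Hoxb2 is at 5.77 to 7.22 FPKM in 5FuReserve and at or below 1.03 FPKM in MPP.

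The remaining tested members were low-level genes. Hoxa3 was at 1.36, 2.41 and 2.16 FPKM in 5FuReserve, 4.11, 3.12, 4.95 and 4.45 in MPP, 3.95, 3.88 and 4.59 in ST, 3.67, 4.14 and 4.05 in Primed, and 11.2, 6.81, 8.21 and 7.62 in Reserve, and was called lower in all 4 comparisons. Hoxb4, whose forced expression expands stem cells in culture, was at 0.672, 0.365 and 0.221 FPKM in 5FuReserve against 2.38, 3.01, 1.49 and 1.92 in Reserve (log2 fold change -1.16 ± 0.21, limma adjusted p = 0.00034). Hoxb4 was called in 1 of the 4 comparisons, and in MPP its change of -0.48 did not pass (adjusted p = 0.059). Hoxb6 was at 0.542, 0.262 and 0 FPKM in 5FuReserve, at or below 0.226 in MPP, at or below 0.516 in ST, at 1.29, 0.544 and 0.542 in Primed and at 2.0, 2.46, 3.13 and 3.77 in Reserve. Below the filter, Hoxb9 was between 0.358 and 0.81 FPKM in the 4 Reserve libraries and at or below 0.118 FPKM in the 13 others.

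The 5 calls in Primed cells were Hoxa2, Hoxa3, Hoxa5, Hoxb5 and Hoxb6. None of the 12 members was called without Primed replicate 2 or without Primed replicate 3, when 2 Primed libraries remained. With all 3 libraries the largest of these changes was Hoxb5, given above, followed by Hoxb6 (-1.1 ± 0.21, limma adjusted p = 0.0092), Hoxa2 (-0.96, 0.038), Hoxa3 (-0.91 ± 0.18, 0.012) and Hoxa5. Hoxb6 passed the filter only through Reserve, so its lower value in Primed was built into its selection.

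Markers of other blood cells moved with the 5FuReserve group. The B cell genes Cd79a, Cd79b and Ms4a1 averaged 497, 482 and 108 FPKM in 5FuReserve and 0.292, 65.4 and 0.303 in Reserve. Summed macrophage marker FPKM was 71.4 to 94.1 in 5FuReserve and 12.2 to 21.4 in Reserve. Summed T cell marker FPKM (Cd3e, Cd3g, Cd3d and Trac) was 234 to 288 in 5FuReserve and 0.333 to 0.605 in Reserve. A list of 5 stem cell genes (Hlf, Mecom, Procr, Kit and Mllt3) summed to 161 to 195 FPKM in 5FuReserve, 125 to 135 in MPP, 262 to 272 in ST, 374 to 391 in Primed and 574 to 604 in Reserve. The part of these cells in the lower Hox values was not tested.

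Genes of the Hox pathway were read from lists of cofactors, regulators and neighbours. Of 9 cofactors 8 were tested in HSPCs: 5 were lower and 0 higher in 5FuReserve, 5 and 0 in MPP, 3 and 0 in ST, and 2 and 0 in Primed. Of all tested genes 22.8% were lower in 5FuReserve, 28.3% in MPP, 6.21% in ST and 2.26% in Primed. Meis1, the Hoxa9 partner in leukemia, averaged 106 FPKM in 5FuReserve, 73.6 in MPP and 220 in Reserve, with log2 fold changes of -1.05 ± 0.1 in 5FuReserve (limma adjusted p = 5e-07) and -1.57 ± 0.09 in MPP (7.4e-09). The median log2 fold change of the tested cofactors was -0.68 in 5FuReserve and -1.36 in MPP, and that of all tested genes was -0.03 in 5FuReserve and -0.2 in MPP.

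Of 13 Trithorax and Cdx regulators 10 were tested, with 6 lower and 2 higher in 5FuReserve, 3 and 1 in MPP, 3 and 0 in ST, and 1 and 0 in Primed. Mllt3, a partner of Kmt2a that is itself known from stem cell maintenance, averaged 60.9 FPKM in 5FuReserve, 10.5 in MPP, 33.0 in ST, 58.4 in Primed and 211 in Reserve, and was lower in all 4 (limma adjusted p between 7.4e-10 and 0.00013). Kmt2a itself averaged 3.91 FPKM in 5FuReserve against 13.1 in Reserve (adjusted p = 2.5e-08). All 19 Polycomb genes were tested, with 9 lower and 2 higher in 5FuReserve, 5 and 2 in MPP, 4 and 3 in ST, and 0 and 2 in Primed. In MPP the Trithorax and Polycomb counts were near the shares over all tested genes, 28.3% lower and 12.7% higher. Those shares were 22.8% lower and 25.5% higher in 5FuReserve, 6.21% and 6.52% in ST, and 2.26% and 1.61% in Primed. The median log2 fold change of the Polycomb genes was -0.4 in 5FuReserve, where that of all genes was -0.03, and -0.28 in MPP, where that of all genes was -0.2. In MPP Ezh2, the main histone H3 lysine 27 methyltransferase, went against the median of the Polycomb genes. It averaged 64.2 FPKM in MPP, 44.9 in ST, 37.6 in Primed and 21.7 in Reserve.

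**Figure D3:**
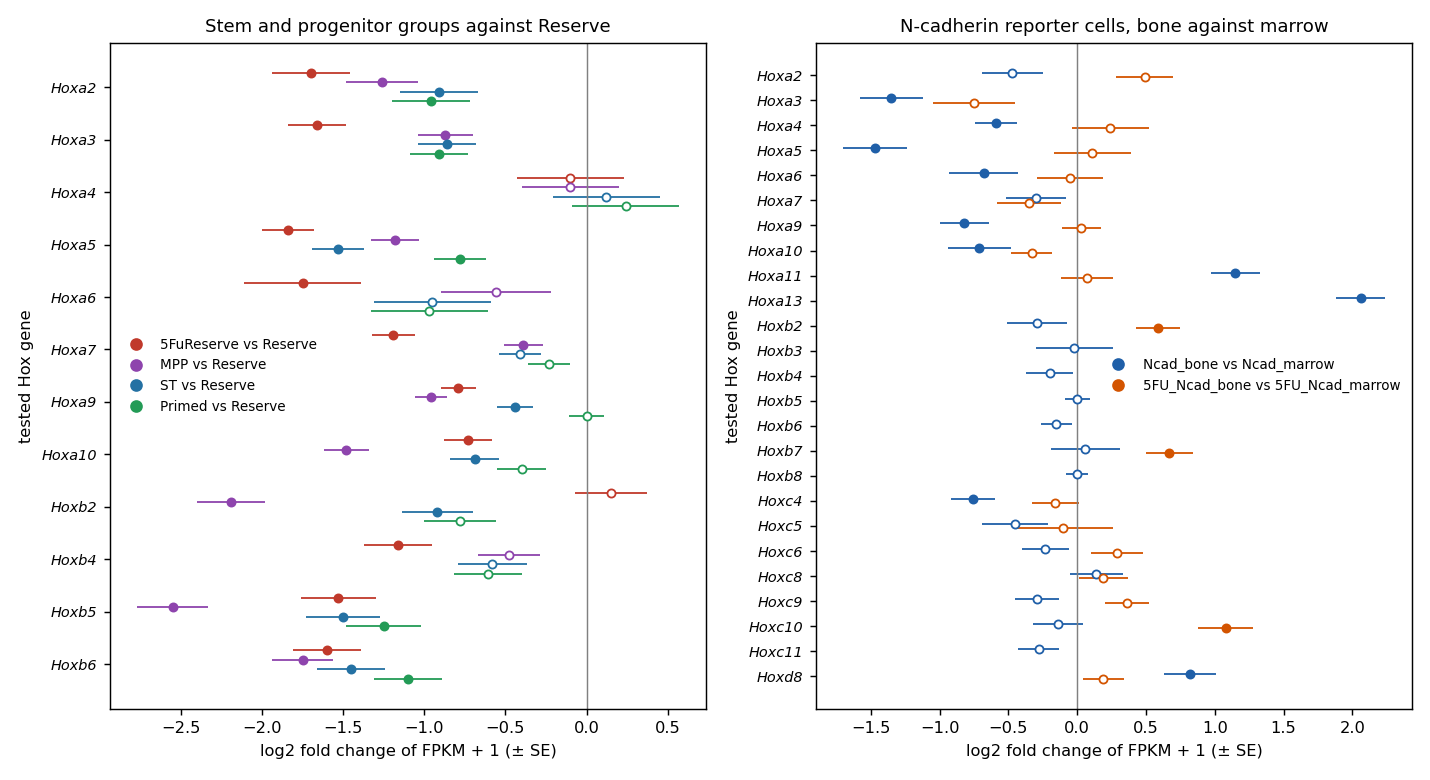
Log2 fold change of tested Hox genes on log2(FPKM + 1), with filled points for limma adjusted p below 0.05 and open points otherwise, and lines of ± SE; left, 5FuReserve, MPP, ST and Primed against Reserve, and right, Ncad_bone against Ncad_marrow and 5FU_Ncad_bone against 5FU_Ncad_marrow. All called members lie below 0 on the left, while on the right Hoxa13 (2.06) and Hoxa5 (-1.47) lie on opposite sides.

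Between 13 members (Col2.3_GFP and Ng2_RFP) and 18 members (Ncad_bone, Ncad_marrow and Cxcl12_RFP) averaged 1 FPKM or more in a stromal group. Of 26 members tested in the niche table, 19 differed among the 7 stromal groups by limma's F test, where 69% of all tested genes did, so the members' share was near the background. Summed Hox FPKM was 93.9 ± 20.9 in Col2.3_GFP, 91.1 ± 7.28 in Ng2_RFP, 134 ± 11.4 in Ncad_bone, 190 ± 3.9 in Ncad_marrow, 143 ± 9.1 in Cxcl12_RFP and 148 ± 5.38 in Nestin_GFP (SD, n = 4 each), and 117 ± 12.4 in Lepr (SD, n = 6). The Hoxa share was 54.6% in Col2.3_GFP, 51.4% in Ng2_RFP and 68.8% to 76.5% in the other 5 groups. Hoxc held 28.3% in Col2.3_GFP, 32.4% in Ng2_RFP and 18.3% to 24.4% in the others.

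Hoxa10 and Hoxa5 ordered the stromal groups differently. Mean Hoxa10 FPKM was 22.3 ± 8.42 in Col2.3_GFP, 16.1 ± 2.88 in Ng2_RFP, 37.3 ± 6.09 in Ncad_bone, 60.9 ± 3.72 in Ncad_marrow, 39.5 ± 3.45 in Cxcl12_RFP, 43.9 ± 6.59 in Nestin_GFP and 28.6 ± 4.6 in Lepr (SD over 4 libraries, 6 for Lepr; limma F test, adjusted p = 9.9e-08). The 4 Ncad_marrow libraries lay above all others, and every other pair of neighbours in the order of means overlapped. Mean Hoxa5 FPKM was 1.82 in Col2.3_GFP, 4.44 ± 1.01 in Ng2_RFP, 3.9 ± 1.26 in Ncad_bone, 12.5 ± 2.95 in Ncad_marrow, 9.77 ± 2.23 in Cxcl12_RFP, 12.7 ± 2.64 in Nestin_GFP and 9.13 ± 1.84 in Lepr (SD as above; limma F test, adjusted p = 6e-11). All libraries of Ncad_marrow, Cxcl12_RFP, Nestin_GFP and Lepr were at 7.02 FPKM or more and lay above those of Ng2_RFP and Ncad_bone, which overlapped, and Col2.3_GFP lay below all other groups.

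N-cadherin reporter cells taken from bone and from marrow were compared within the niche table. Of the 26 members 3 were higher and 7 lower in Ncad_bone, where 14.7% of all tested genes were higher and 9.95% lower. The higher members were the distal limb genes Hoxa13 and Hoxa11 and the central gene Hoxd8. The lower ones were Hoxa3, Hoxa4, Hoxa5, Hoxa6, Hoxa9, Hoxa10 and Hoxc4. The median log2 fold change of the members was -0.25, and that of all genes was 0.

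Hoxa13, which patterns hand and foot, was at 6.63, 3.29, 3.18 and 4.48 FPKM in Ncad_bone and at 0.017, 0.113, 0.447 and 0.523 in Ncad_marrow. No library outside Ncad_bone exceeded 0.754 FPKM. The log2 fold change was 2.06 ± 0.18 (limma adjusted p = 4.5e-11). Hoxa13 passed the filter only through the Ncad_bone libraries, so it had to differ from the other groups.

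Hoxa11 was at 4.07, 5.14, 6.64 and 3.31 FPKM in Ncad_bone and at 1.72, 1.12, 1.16 and 2.42 in Ncad_marrow (log2 fold change 1.15 ± 0.18, limma adjusted p = 8.3e-06). Its antisense neighbour Hoxa11os averaged 11.7 FPKM in Ncad_bone and 5.7 in Ncad_marrow (0.93 ± 0.17, 9.1e-05). Exons of this pair overlap on opposite strands, so the limit given for Hoxb5 holds here too. Hoxd8 was at 4.47, 6.7, 7.85 and 4.45 FPKM in Ncad_bone and at 4.34, 3.42, 1.43 and 2.68 in Ncad_marrow (0.82 ± 0.19, 0.0011).

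Hoxa5 was at 3.3, 3.84, 5.68 and 2.78 FPKM in Ncad_bone and at 13.2, 16.2, 11.6 and 9.14 in Ncad_marrow. The log2 fold change was -1.47 ± 0.23 (limma adjusted p = 8.5e-06), and the groups did not overlap. Hoxa9 was at 18.8, 17.2, 23.0 and 26.5 FPKM in Ncad_bone and at 34.4, 34.8, 39.4 and 43.8 in Ncad_marrow (-0.82 ± 0.18, 0.00062). Hoxa10 was at 35.4, 29.6, 40.9 and 43.2 FPKM in Ncad_bone and at 58.4, 57.1, 63.3 and 64.8 in Ncad_marrow, again without overlap (-0.71 ± 0.23, 0.021). The Hoxa10 call was lost without Ncad_bone replicate 2 (adjusted p = 0.085), without Ncad_marrow replicate 3 (0.051) and with a pseudocount of 0.1 (0.19).

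Limb identity genes were read beside these values. Of 8 listed genes 5 were tested, with 2 higher and 1 lower in Ncad_bone, where 14.7% of all tested genes were higher and 9.95% lower. Tbx2 averaged 7.19 FPKM in Ncad_bone and 0.497 in Ncad_marrow (2.29 ± 0.24, limma adjusted p = 1.9e-09), and Tbx4, a hindlimb factor, averaged 1.37 FPKM in Ncad_bone and 0.0122 in Ncad_marrow (1.22 ± 0.12, 7.3e-10). Pitx1, which specifies the hindlimb, averaged 2.64 FPKM in Ncad_bone and 5.29 in Ncad_marrow, and was listed at 0 in all HSPC libraries, where no limb identity gene passed the filter. Markers of other cells also moved with the site. Of 4 Schwann cell markers 3 were higher in Ncad_bone, although their summed FPKM was 76.8 to 96.6 in Ncad_bone and 106 to 115 in Ncad_marrow. Of 4 osteoblast markers 1 was higher and 0 lower in Ncad_bone, with a median log2 fold change of 0.87. Summed osteoblast marker FPKM was nevertheless 3390 to 5730 in Ncad_bone and 6110 to 7680 in Ncad_marrow. The part of these other cells in the Hox values was not tested.

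The same Ncad_bone libraries set against Lepr gave 4 members higher and 3 lower, with 20.4% of all tested genes higher and 12.6% lower. Hoxa11 (1.54 ± 0.16, limma adjusted p = 4e-09), Hoxd8 (1.31 ± 0.17, 2e-07) and Hoxc8 (0.82 ± 0.17, 0.00027) were higher. Hoxa13 (2.19 ± 0.17, limma adjusted p = 6.9e-13) is counted with them. It passed the filter only through Ncad_bone, so it had to be higher there. Hoxa5 (-1.06 ± 0.21, 0.00018), Hoxa3 (-0.6, 0.025) and Hoxa6 (-0.62, 0.036) were lower. Under median-of-ratios scaling the counts were 4 higher and 5 lower. The Hoxa3 call was lost without Ncad_bone replicate 1 or 4 and without Lepr replicate 1 or 3 (adjusted p between 0.055 and 0.097). Schwann cell markers were higher in Ncad_bone for 4 of 4 genes, with sums of 76.8 to 96.6 FPKM in Ncad_bone and 42.7 to 59.5 in Lepr, and osteoblast markers for 3 of 4 genes, with sums of 3390 to 5730 in Ncad_bone and 5500 to 7820 in Lepr. Their part in the Hox values was not tested.

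**Figure D4:**
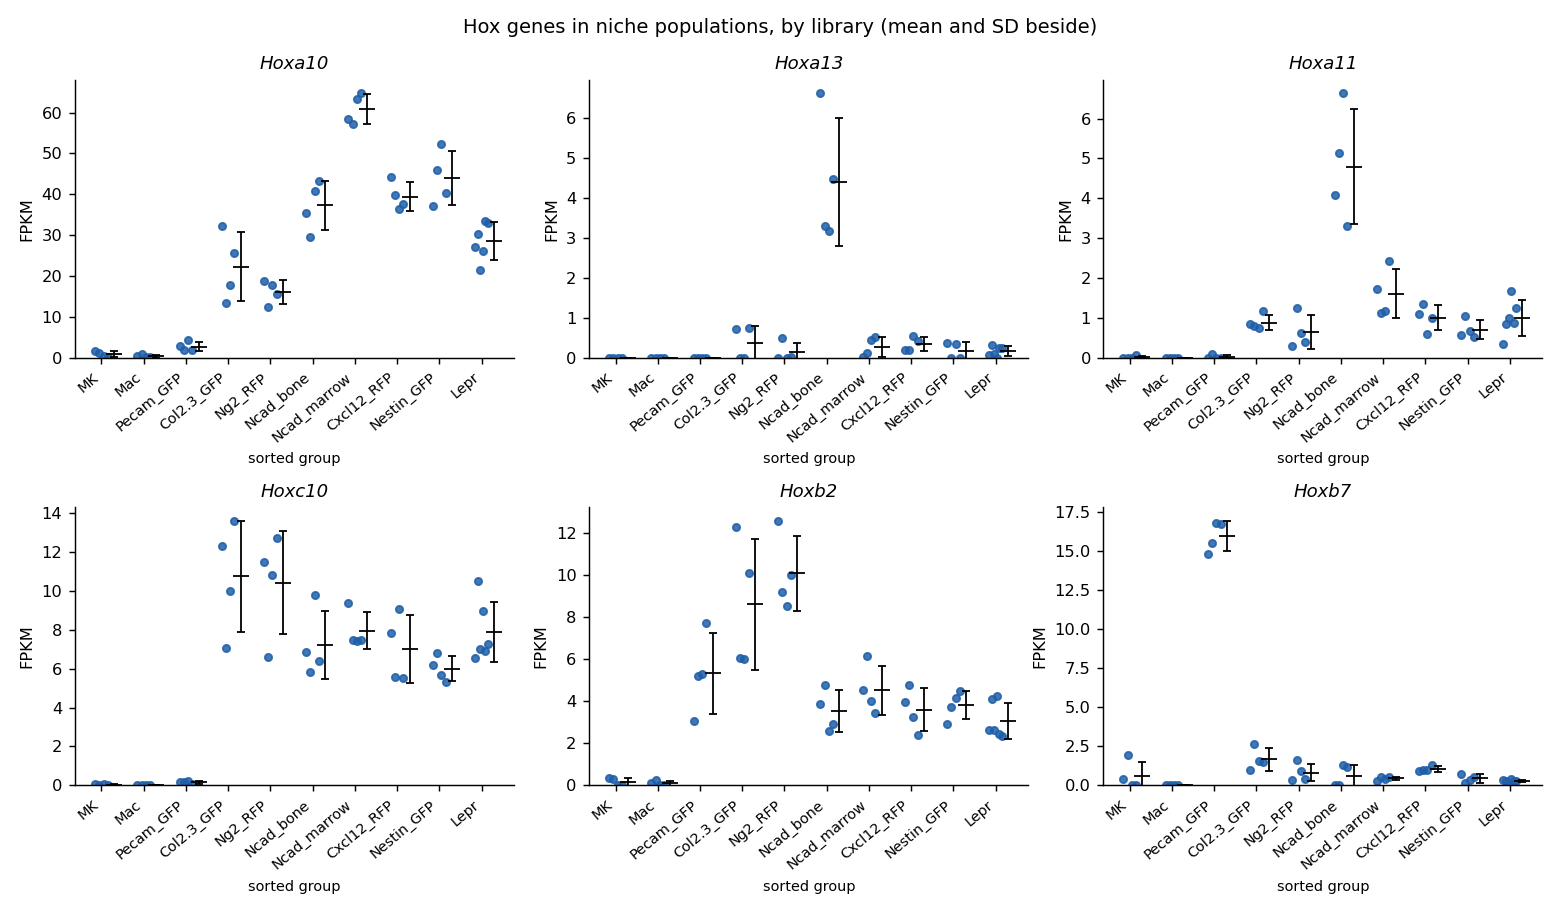
FPKM of Hoxa10, Hoxa13, Hoxa11, Hoxc10, Hoxb2 and Hoxb7 in each of the 42 libraries of the niche table (points), by sorted group, with the group mean and SD drawn beside them. Hoxa13 is at 3.18 to 6.63 FPKM in Ncad_bone and at or below 0.754 FPKM in the other groups, and Hoxb7 is at 14.8 to 16.8 FPKM in Pecam_GFP.

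Ng2_RFP and Col2.3_GFP, the groups with the highest osteoblast marker sums, had lower Hoxa genes and higher Hoxb2 than Lepr. In Ng2_RFP 2 members were higher and 8 lower, against 16.1% and 14.1% of all tested genes, and in Col2.3_GFP 5 were higher and 8 lower, against 28.2% and 16.8%. Under median-of-ratios scaling the Col2.3_GFP counts were 2 higher and 11 lower. All 7 called Hoxa members were lower in each group.

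Hoxb2, best known from hindbrain segmentation, was at 12.6, 9.21, 8.54 and 10 FPKM in Ng2_RFP and at 12.3, 6.08, 6.0 and 10.1 in Col2.3_GFP, and the lowest, median and highest Lepr values were 2.35, 2.64 and 4.24. Neither group overlapped Lepr, and the log2 fold changes were 1.46 ± 0.2 in Ng2_RFP (limma adjusted p = 3.3e-07) and 1.21 ± 0.2 in Col2.3_GFP (6.1e-06). Hoxa5 was at 4.39, 5.88, 3.58 and 3.92 FPKM in Ng2_RFP and at 1.38, 2.74, 1.47 and 1.69 in Col2.3_GFP, and the lowest, median and highest Lepr values were 7.02, 8.95 and 12.4. All 8 libraries lay below Lepr, with limma log2 fold changes of -0.89 (adjusted p = 0.0011) and -1.85 ± 0.21 (4.7e-09). Hoxa10 was at 18.8, 12.3, 17.8 and 15.5 FPKM in Ng2_RFP and at 32.3, 13.3, 17.8 and 25.7 in Col2.3_GFP, against a lowest, median and highest of 21.5, 28.7 and 33.5 in Lepr. It was lower in Ng2_RFP (-0.79 ± 0.21, limma adjusted p = 0.0034) and not called in Col2.3_GFP (-0.4, 0.12), where the libraries overlapped Lepr. The Ng2_RFP call was lost with a pseudocount of 0.1 (0.083), and a Col2.3_GFP call was gained under median-of-ratios scaling (0.02) and without Col2.3_GFP replicate 1 (0.026).

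Other cell types moved with these groups. Summed osteoblast marker FPKM was 23700 to 28300 in Ng2_RFP, 6930 to 13800 in Col2.3_GFP and 5500 to 7820 in Lepr. Skeletal muscle markers summed to 238 to 487 FPKM in Col2.3_GFP and to at most 0.194 in Lepr, and Schwann cell markers to 155 to 168 in Ng2_RFP and 42.7 to 59.5 in Lepr. The part of these cells in the Hox values was not tested.

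The Hox set of Pecam_GFP cells was led by Hoxa5 at 21.1 FPKM, Hoxb7 at 16.0 and Hoxa7 at 13.2. Against Lepr 10 of 26 members were higher and 10 lower, where 19.7% of all tested genes were higher and 22% lower. All 7 tested Hoxc genes were lower. The 10 higher members include 7 Hoxb genes, of which Hoxb5, Hoxb6 and Hoxb8 passed the filter only through Pecam_GFP and so had to be higher. Hoxb held 37.4% of summed Hox FPKM in Pecam_GFP and 3.23% in Lepr, and Hoxc held 0.831% in Pecam_GFP and 24.4% in Lepr. Members with paralog numbers 4 to 8 held 78.3 ± 1.08% in Pecam_GFP (SD, n = 4), and those with 9 to 13 held 8.38%.

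Hoxb7 was at 14.8, 15.5, 16.8 and 16.7 FPKM in Pecam_GFP, against a lowest, median and highest of 0.178, 0.277 and 0.416 in Lepr (log2 fold change 3.72 ± 0.23, limma adjusted p = 5.1e-16). Its neighbours Hoxb6, Hoxb5 and Hoxb8 were at 2.56 to 4.72, 1.81 to 2.64 and 1.28 to 2.2 FPKM in Pecam_GFP and at most 0.147, 0.153 and 0 in Lepr. Hoxa5 was at 24.3, 23.3, 20.2 and 16.7 FPKM in Pecam_GFP and at 7.02, 8.95 and 12.4 (lowest, median, highest) in Lepr (1.13 ± 0.21, 3.4e-05).

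On the other side, Hoxa10 was at 2.78, 1.97, 4.28 and 1.78 FPKM in Pecam_GFP and at 21.5 to 33.5 in Lepr (-3.03 ± 0.21, limma adjusted p = 9.3e-15). Hoxa9 was at 2.96, 3.04, 3.99 and 3.91 FPKM in Pecam_GFP and at 18.6 to 28.0 in Lepr (-2.42 ± 0.16, 2.6e-15). Hoxc6 was at most 0.571 FPKM in Pecam_GFP, with a median of 10.2 in Lepr (-3.13 ± 0.16, 1.9e-18), and Hoxc10 at most 0.211, with a median of 7.15 in Lepr (-2.93 ± 0.16, 1.2e-17). Hoxa7 was not called (0.04, 0.91). All 5 tested limb identity genes were lower in Pecam_GFP than in Lepr, where 22% of all tested genes were lower.

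Mac cells and the Pf4-Cre-marked MK cells, the CD45+ groups of the niche table, held little Hox RNA. Summed Hox FPKM was 9.99 ± 3.47 in MK and 6.58 ± 1.02 in Mac (SD, n = 4 each), beside 117 ± 12.4 in Lepr. In MK 19 of 26 members were lower and 1 higher, against 29.4% and 29.1% of all tested genes, and in Mac 19 were lower and 1 higher, against 35.4% and 22.5%. The median log2 fold change of the members was -1.18 in MK (all genes -0.01) and -1.3 in Mac (all genes -0.15).

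Hoxb4 was the 1 member higher in both. It was at 0.961, 0.883, 1.94 and 1.33 FPKM in MK and at 2.05, 1.56, 1.2 and 1.36 in Mac, and at most 0.157 in Lepr (1.03 ± 0.16, limma adjusted p = 6.4e-07 in MK, and 1.2 ± 0.16, 3.1e-08 in Mac). Hoxa9 was at 2.06, 1.45, 0.916 and 1.7 FPKM in MK and at 2.08, 1.75, 2.6 and 2.29 in Mac, beside 73.5 to 82.0 FPKM in Reserve cells of the HSPC table. Mesenchymal markers summed to 31.5 to 275 FPKM in MK libraries and to 13500 to 19200 in Lepr libraries. Summed macrophage marker FPKM was 144 to 351 in MK, 185 to 263 in Mac and 17.5 to 40.4 in Lepr, and summed T cell marker FPKM was 19.7 to 84.7 in MK and 0.557 to 13.1 in Lepr. The B cell genes Cd79a and Cd79b averaged 103 and 162 FPKM in MK and 6.32 and 11.8 in Lepr. Their part in these values was not tested.

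**Figure D5:**
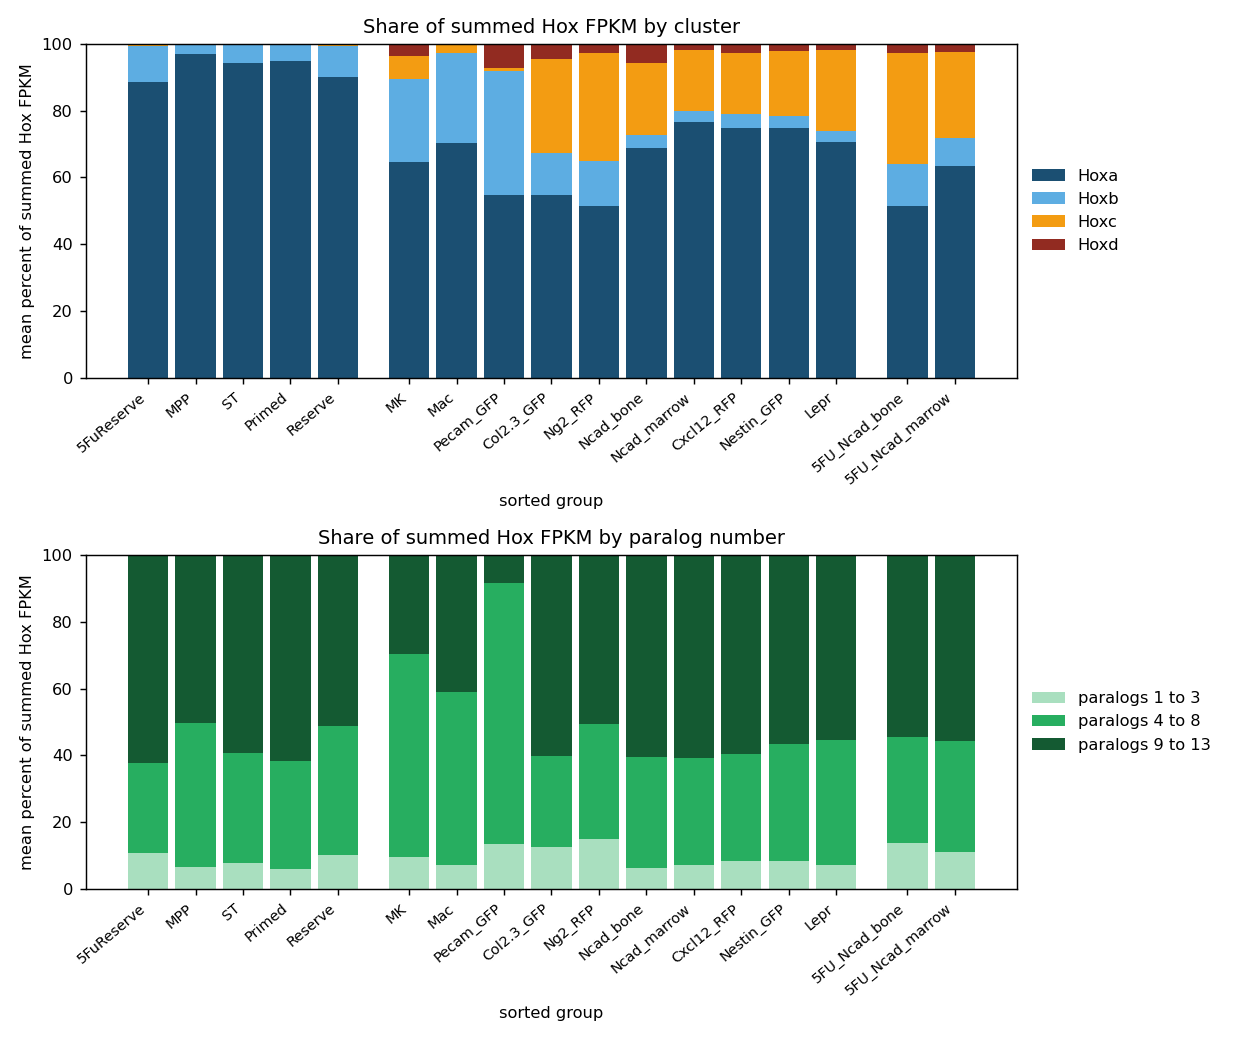
Mean percent of summed Hox FPKM in the 17 sorted groups, stacked by cluster (top) and by paralog number (bottom). The HSPC bars are 88.6% to 97.0% Hoxa, the Pecam_GFP bar is 37.4% Hoxb and 78.3% paralogs 4 to 8, and the stromal bars hold 18.3% to 32.4% Hoxc.

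N-cadherin reporter cells of bone and marrow were compared again after 5FU, within their own table. Of 18 tested members 3 were higher and 0 lower in 5FU_Ncad_bone, where 12.5% of all tested genes were higher and 10.4% lower. The 3 were Hoxc10, Hoxb7 and Hoxb2. The median log2 fold change of the members was 0.15, and that of all genes was 0. Summed Hox FPKM was 136 ± 5.17 in 5FU_Ncad_bone and 123 ± 8.27 in 5FU_Ncad_marrow (SD, n = 3 each).

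Hoxc10 was at 21.4, 15.0 and 18.6 FPKM in 5FU_Ncad_bone and at 10.2, 7.04 and 7.22 in 5FU_Ncad_marrow, without overlap (log2 fold change 1.08 ± 0.2, limma adjusted p = 0.011). This call held without each of the 6 libraries. Hoxc5, whose exons overlap those of Hoxc10 on the same strand, averaged 4.49 FPKM in 5FU_Ncad_bone and 4.75 in 5FU_Ncad_marrow and was not called (adjusted p = 0.87). Hoxb7 was at 1.75, 1.27 and 1.39 FPKM in 5FU_Ncad_bone and at 0.772, 0.474 and 0.415 in 5FU_Ncad_marrow (0.67 ± 0.17, 0.035). It passed the filter only through the bone libraries, so it was not tested without any 1 of them. Its call was also lost without 5FU_Ncad_marrow replicate 2 or 3. Hoxb2 was at 13.2, 16.1 and 12.1 FPKM in 5FU_Ncad_bone and at 8.55, 7.82 and 9.98 in 5FU_Ncad_marrow (0.59 ± 0.16, 0.044), and was lost without any 1 of the 6 libraries.

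None of the 9 tested Hoxa genes was called between the sites after 5FU. Hoxa9 averaged 21.7 ± 1.86 FPKM in 5FU_Ncad_bone and 21.3 ± 2.78 in 5FU_Ncad_marrow (SD, n = 3 each; log2 fold change 0.03, limma adjusted p = 0.9). Hoxa10 was at 26.5, 25.3 and 24.9 FPKM in 5FU_Ncad_bone and at 28.8, 39.2 and 30.0 in 5FU_Ncad_marrow (-0.33, 0.16). Hoxa13 was at 0.247, 0 and 0.184 FPKM in 5FU_Ncad_bone and at 0, 0.282 and 0.457 in 5FU_Ncad_marrow, below the filter.

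Whether 5FU changed the difference between the sites was tested directly, as the log2 difference between 5FU_Ncad_bone and 5FU_Ncad_marrow minus that between Ncad_bone and Ncad_marrow. An offset that a table gives a gene cancels in that term if it is constant on the log2(FPKM + 1) scale. A factor on FPKM cancels only in part at low values, such as those of Hoxa11 and Hoxa13. All 5FU libraries of these cells are in the separate table, so a difference between the tables that affects 1 site more than the other cannot be told apart from 5FU. Of 21 members tested 3 had a higher and 2 a lower site difference after 5FU, where 8.23% of all tested genes were higher and 10.6% lower. The lower values were those of Hoxa11 (-1.08 ± 0.33, limma adjusted p = 0.039) and Hoxa13. The Hoxa13 term of -2.17 is given as a description only, since the gene passed the filter only through Ncad_bone. Hoxd8, also higher in bone without the drug, was not called (-0.62, adjusted p = 0.26). Hoxa5 (1.58 ± 0.38, 0.012), Hoxc10 (1.23 ± 0.27, 0.0073) and Hoxa9 (0.85 ± 0.22, 0.017) had the higher ones. The Hoxa11 call was lost in 10 of the 14 fits that left out a library, with adjusted p between 0.053 and 0.1.

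The underlying Hoxa5 values after 5FU were 5.6, 4.88 and 11 FPKM in 5FU_Ncad_bone and 6.59, 6.41 and 5.59 in 5FU_Ncad_marrow, which overlapped, beside the separated values given above without the drug. Hoxa11 was at 1.27, 1.04 and 1.1 FPKM in 5FU_Ncad_bone and at 0.68, 1.03 and 1.46 in 5FU_Ncad_marrow. The cells of the sites differed in type as well: after 5FU summed osteoblast marker FPKM was 4880 to 6140 in 5FU_Ncad_bone and 193 to 588 in 5FU_Ncad_marrow, and summed mesenchymal marker FPKM was 4600 to 5040 in 5FU_Ncad_bone and 10600 to 13900 in 5FU_Ncad_marrow. The part of this difference in the Hox values was not tested.

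Of 5 tested noncoding genes of the clusters 2 were higher and 0 lower in 5FU_Ncad_bone, where 12.5% of all tested genes were higher and 10.4% lower. Hoxd3os1 averaged 7.9 FPKM in 5FU_Ncad_bone and 2.59 in 5FU_Ncad_marrow (1.31 ± 0.15, limma adjusted p = 0.0017), and Hoxaas3, which overlaps Hoxa3 and Hoxa7 on the other strand, averaged 5.66 FPKM in 5FU_Ncad_bone and 2.07 in 5FU_Ncad_marrow (1.1 ± 0.19, 0.008). Of 8 tested cofactors 3 were lower in 5FU_Ncad_bone and 0 higher.

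Some members were near or below detection in all the cells sampled. In the 65 libraries 10 of the 39 never reached 1 FPKM: Hoxb1, Hoxb13, Hoxc12, Hoxc13, Hoxd1, Hoxd3, Hoxd4, Hoxd11, Hoxd12 and Hoxd13. The highest values among them were 0.891 FPKM for Hoxd4 in Pecam_GFP and 0.801 FPKM for Hoxc13 in Ncad_bone. Levels of neighbouring members are also uncertain where exons overlap. On the same strand 9 members overlap a gene, among them Hoxc5 and Hoxc10, Hoxd3 and Hoxd4. On the opposite strand 10 overlap a gene, among them Hoxa3, Hoxa7, Hoxa11, Hoxb2 and Hoxb5, so the limit given for Hoxb5 holds for each.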

How the data were processed

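The deposited values are FPKM per gene, in 1 table for 17 HSPC libraries, 1 for 42 niche libraries and 1 for 6 niche libraries after 5FU. Per the submitters' processing notes, bcl2fastq 2.18, TopHat2 2.0.13, Cufflinks 2.2.1 and mm10 were used; per the labels' protocols, cells were sorted by flow cytometry and libraries made with SMARTer and Nextera kits. Genes with a missing value (15, 28 and 4) were left out. FPKM keeps no total count; the steps between low values put the libraries of a table within 6.28-, 7.21- and 2.64-fold of each other in relative depth. The 10 highest genes took 33.0% to 86.9% of summed FPKM in HSPC and niche libraries, so a gene's FPKM also moves with those genes.

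In limma 3.58.1 (R 4.3.3) log2(FPKM + 1) of genes at 1 FPKM or more in at least 3 libraries of a table was fitted with all groups of the table sharing 1 spread, an intensity trend, two-sided tests and Benjamini-Hochberg adjustment over all genes, called below 0.05. There were 14 comparisons, adjusted within each. The site-by-5FU term used the 14 N-cadherin libraries of both tables. A fold change on this scale understates low genes. The fit was tested on simulated data. Same-numbered replicates did not deviate together. Chosen for naming were, per comparison, up to 6 called members with the smallest p and members averaging 10 FPKM in either group. Not all of these are printed. Some other members are given as well, such as Hoxb4 in 5FuReserve, and their single values were not followed through the alternatives. The members and lists were chosen with earlier results of these data known. The values of 1 member and of some marker and cofactor genes are not reported here. Positions are from GENCODE M21, promoters from RefSeq. Alternatives were a filter on mean FPKM (at least 5), no filter, a pseudocount of 0.1, fits of the compared groups alone, scaling by median of ratios, a replicate block, and leaving out each library.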

Additional observations from a re-analysis of the deposited data

Results flagged for a closer look

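In groups of 4 to 10 libraries, a member's highest or lowest library stood apart from the others of its group in 9 of 142 groups examined (Dixon's 95% criterion), where chance gives about 1 in 20. Hoxa9 was at 82 FPKM in Reserve replicate 2 and at 73.5 to 74.3 in the other 3. Hoxa3 was at 3.45 FPKM in Cxcl12_RFP replicate 2 and at 5.46 to 5.75 in the others. Hoxa6 was at 3.13 FPKM in Lepr replicate 4 (others 1.11 to 1.83), and Hoxc6 at 5.83 FPKM in Lepr replicate 3 (others 9.86 to 12.1). In Ng2_RFP replicate 2, Hoxc4 was at 1.96 FPKM (others 1.02 to 1.15) and Hoxc6 at 8.43 FPKM (others 6.61 to 6.76). Hoxc8 was at 6.78 FPKM in Ncad_bone replicate 4 (others 3.75 to 4.12), Hoxc10 at 9.37 FPKM in Ncad_marrow replicate 1 (others 7.43 to 7.49) and Hoxd8 at 3.51 FPKM in Nestin_GFP replicate 2 (others 2.14 to 2.32).

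The difference between bone and marrow N-cadherin cells itself differed with 5FU for 5 members by limma's interaction term: Hoxa5 by 1.58, Hoxc10 by 1.23, Hoxa9 by 0.85, Hoxa11 by -1.08 and Hoxa13 by -2.17 on the log2 scale. Hoxa13 passed the filter only through Ncad_bone, so its term is a description.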

How the results depend on the processing

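Of 85 called results for single named members, 69 stayed called in each alternative run that tested the member. In the fits without 1 library, 71 stayed called wherever the member was tested. A run whose filter dropped a member was not counted as a loss, which applies above all to the filter on mean FPKM. Apart from the fits without 1 library, given below, the number of members called changed by over 1.5 times under 3 alternatives. With a mean FPKM of at least 5, which leaves 4 members in HSPCs, 6 in the niche table and 8 for the site-by-5FU term, it was 1 for Primed, 3 for ST, 4 for MPP and 4 for 5FuReserve against Reserve; 3 for Ncad_bone against Ncad_marrow; 1 for Ncad_bone, 4 for Ng2_RFP, 4 for Col2.3_GFP, 5 for Pecam_GFP, 6 for Mac and 6 for MK against Lepr; 6 among the stromal groups; and 3 for the site-by-5FU term. With a pseudocount of 0.1 it was 2 for Primed. With the replicate number as a block it was 1 for 5FU_Ncad_bone against 5FU_Ncad_marrow (3 without the block), and within 1.5 times in the other 13 comparisons; the numbers do not pair the libraries.

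Leaving out each library gave 0 to 6 called members for Primed (0 without Primed replicate 2 or 3), 6 to 9 for ST, 8 to 10 for MPP and 10 in each fit for 5FuReserve. It gave 9 to 10 for Ncad_bone against Ncad_marrow, 5 to 8 for Ncad_bone, 7 to 12 for Ng2_RFP, 11 to 14 for Col2.3_GFP, 19 to 21 for Pecam_GFP and 20 in each fit for Mac and MK against Lepr. It gave 18 to 19 among the stromal groups, 1 to 2 for 5FU_Ncad_bone against 5FU_Ncad_marrow and 4 to 6 for the site-by-5FU term.

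Only uncalled changes near 0 turned their sign: Hoxa9 in Primed (0.03 and 0.04 without Reserve replicate 2 or Primed replicate 1), Hoxa7 in Pecam_GFP (-0.04 under the replicate block, and -0.01, -0.08 and -0.03 without Lepr replicate 6 or Pecam_GFP replicate 3 or 4, with up to 0.23 without another library), and Hoxa9 between the 5FU sites (-0.04, -0.01 and -0.03 without bone replicate 3 or marrow replicate 1 or 3, with up to 0.13 without another). Median-of-ratios scaling moved the median of all genes to -0.02 in MPP (-0.2 as reported) and to -0.04 in Mac (-0.15). Shares of summed FPKM follow the highest gene: 94 of 119 moved by over 1 SD without it, and 105 of 119 when log2(FPKM + 1) was summed in place of FPKM. The cause of these changes was not tested. FPKM carries no counts, so values below 1 FPKM have no stated precision.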

Other observations

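Genes that border the clusters but are no Hox genes were read in the same fits. In HSPCs 7 of 12 listed flanking genes were tested against Reserve. In 5FuReserve 2 were higher and 1 lower, beside 25.5% and 22.8% of all tested genes. In MPP 1 was higher and 4 lower (all genes 12.7% and 28.3%). In ST 2 were higher and 0 lower (6.52% and 6.21%), and in Primed 1 and 0 (1.61% and 2.26%). Skap1, a T cell adaptor gene beside the Hoxb cluster, averaged 39.6 FPKM in 5FuReserve and 1.45 in Reserve (log2 fold change 4.14 ± 0.44, limma adjusted p = 2.6e-06), in libraries whose summed T cell marker FPKM was 234 to 288 in 5FuReserve and 0.333 to 0.605 in Reserve. Mtx2, a mitochondrial import gene beside Hoxd1, averaged 105 FPKM in 5FuReserve and 40.4 in Reserve (1.37 ± 0.19, 2.9e-05), while no Hoxd gene exceeded 0.301 FPKM in an HSPC library. Among N-cadherin cells Skap2, an adaptor gene beside the Hoxa cluster, averaged 98.9 FPKM in Ncad_bone and 38.4 in Ncad_marrow (1.34 ± 0.26, 2e-04), and its site difference was lower after 5FU (-0.95 ± 0.22, 0.009).

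Noncoding genes within the clusters were higher, lower or uncalled group by group. In HSPCs 5 of 10 were tested. In 5FuReserve 2 were lower and 0 higher, beside 22.8% and 25.5% of all tested genes. In MPP 3 were lower and 0 higher (all genes 28.3% and 12.7%), and none was called in ST or Primed. Hoxb3os averaged 1.01 FPKM in 5FuReserve, 1.35 in MPP and 4.05 in Reserve (limma adjusted p = 0.00025 and 0.00067). Against Lepr, Pecam_GFP cells had 3 of 6 higher and 2 lower, where 19.7% of all tested genes were higher and 22% lower. Hoxd3os1 averaged 23.8 FPKM in Pecam_GFP and 5.9 in Lepr (1.89 ± 0.24, limma adjusted p = 4.9e-08), and Hoxa11os 0.026 in Pecam_GFP and 2.22 in Lepr (-1.63 ± 0.16, 5.2e-11).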
